A study of Mus musculus with 12 samples.

Results

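The collagen genes of the mouse were examined for 6 histone marks in C2C12 cells before and after fusion into myotubes. Members were all protein-coding genes on chromosomes 1 to 19 and X of the mm9 annotation whose symbol is Col, a number, the letter a and a number. This rule gave 43 of 22350 genes, and it used no measured value. They fell into 11 genes of fibrillar collagens, 8 of basement membranes (the 6 type IV chains with Col15a1 and Col18a1) and 24 others, among them 6 type VI genes, 9 genes of FACITs (fibril-associated collagens with interrupted triple helices) and 4 of transmembrane collagens. C2C12 is an established line of mouse myoblasts from a C3H animal that fuses into multinucleate myotubes when serum is withdrawn. Growing myoblasts were kept in medium with 10% serum, and myotubes were taken about 5 days after serum withdrawal and separated from unfused cells by light trypsin treatment. The labels name no genetic change and no drug for either group, and cells were used at passages 15 to 18. Each of H3K4me3, H3K4me2, H3K4me1, H3K27ac, H3K27me3 and H3K36me3 was measured by ChIP-seq in 1 myoblast and 1 myotube library, 12 libraries in all. There were thus no replicates, so no test between the cell types was possible, and every interval below is an exact 95% interval for counting error alone.

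Collagens are extracellular proteins built from 3 chains wound into a triple helix, and a complete molecule often needs the products of several genes. Fibrillar collagens such as types I, III and V form the cable-like fibrils of tendon, skin and the connective tissue around muscle. Type IV collagen is the sheet-forming network of basement membranes, including the one that surrounds each muscle fibre, and type VI collagen forms beaded filaments that link this membrane to the tissue outside. Of the marks, H3K4me3 lies at active start sites, H3K4me2 and H3K4me1 at start sites and enhancers, H3K27ac at active ones of both kinds, H3K27me3 at regions held by Polycomb complexes, and H3K36me3 along genes that are being transcribed.

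The myoblast files held 1858771 to 7033100 uniquely placed reads and the myotube files 3298694 to 6271899, and H3K27ac in myoblasts was the shallowest library. Reads were extended to 150 bp and counted 1 kb either side of a transcription start site (promoter) and over the gene from its annotated start to its end (gene body). A fold is the number of reads over the number that the library's genome mean would give. At this depth 3 reads, the limit that a count of 0 allows, equalled a 2.06-fold level at a promoter in the myoblast H3K27ac library and 1.38-fold in the myoblast H3K4me3 library. A promoter was called marked at 3-fold or more and a body at 2-fold or more, each with an interval above the genome mean. A myotube to myoblast ratio was taken where both libraries together held at least 30 reads, was set relative to the median of all such genes, and was called at 2-fold or more with an interval that left out 1. Scaled by total reads alone, that median was 0.869 for H3K4me3, 0.591 for H3K4me2, 0.803 for H3K4me1, 0.577 for H3K27ac and 0.681 for H3K27me3 at promoters, and 1.02 for H3K36me3 over bodies. Where a gene had several start sites, the one with the most H3K4me3 reads in both cell types was used. The labels were checked on genes outside the family. All 7 myotube markers had higher H3K4me3 at the promoter in myotubes, and all 5 proliferation genes had lower H3K4me3. Among 6 genes of fibroblasts or other mesenchyme, 3 promoters were marked by H3K4me3 in myoblasts and 1 in myotubes, and the part of such cells in the values below was not tested. A mark that is present in fewer cells and one that is lower in every cell cannot be told apart in these cultures.

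The promoters themselves differed widely in composition. Within 1 kb around the start site the observed to expected ratio of CpG was at least 0.6 in 10 of 43 members, 23.3%, against 47.1% of all protein-coding genes. It ran from 0.0844 in Col28a1 to 0.874 in Col23a1. Members were also long, with a median of 114 kb against 15.4 kb. Sequences of RefSeq promoters (build GRCm38.p6) were at hand for 35 of 43 members, and each matched mm9 at exactly 1 place. Shown here are the 250 bases before the RefSeq start of a choice of genes whose window held no annotated exon. Sequences run 5′ to 3′ on the gene's strand with mm9 positions. The genes are Col13a1 and Col25a1, which gained marks in myotubes, Col3a1 and Col6a3, which lost H3K4me3 and H3K36me3, and Col5a1, which was strong in both. Col8a1, which also lost H3K4me3 and H3K36me3, had no annotated exon in its window either and is not shown. Capitals mark 4 motifs searched on both strands: the TATA box TATAAA, the CCAAT box CCAAT, the E-box CAGCTG and the pattern CTANNNNTAG. The last is looser than the MEF2 site, whose 4 middle bases are A or T, because any base was allowed there.
Col13a1, chr10:61441857-61442106, minus strand: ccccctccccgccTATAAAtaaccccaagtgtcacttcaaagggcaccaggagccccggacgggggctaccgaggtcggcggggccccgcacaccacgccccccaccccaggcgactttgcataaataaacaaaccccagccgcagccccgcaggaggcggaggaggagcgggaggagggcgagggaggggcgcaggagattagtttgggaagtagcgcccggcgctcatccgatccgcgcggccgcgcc
Col25a1, chr3:129883513-129883762, plus strand: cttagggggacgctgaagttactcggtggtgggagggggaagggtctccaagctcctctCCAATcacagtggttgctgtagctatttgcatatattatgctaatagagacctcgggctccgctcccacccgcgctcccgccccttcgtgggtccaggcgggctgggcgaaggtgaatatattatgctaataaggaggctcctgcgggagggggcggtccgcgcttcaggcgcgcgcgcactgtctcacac
Col3a1, chr1:45368133-45368382, plus strand: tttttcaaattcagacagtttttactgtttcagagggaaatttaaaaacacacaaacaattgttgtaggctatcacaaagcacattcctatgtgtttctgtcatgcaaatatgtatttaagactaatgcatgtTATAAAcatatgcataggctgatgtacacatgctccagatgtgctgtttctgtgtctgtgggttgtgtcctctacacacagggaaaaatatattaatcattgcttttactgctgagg
Col6a3, chr1:92740549-92740798, minus strand: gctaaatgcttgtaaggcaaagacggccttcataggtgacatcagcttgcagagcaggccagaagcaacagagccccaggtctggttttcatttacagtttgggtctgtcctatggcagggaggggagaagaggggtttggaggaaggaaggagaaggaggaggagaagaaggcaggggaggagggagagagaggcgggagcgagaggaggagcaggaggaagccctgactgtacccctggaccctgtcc
Col5a1, chr2:27741695-27741944, plus strand: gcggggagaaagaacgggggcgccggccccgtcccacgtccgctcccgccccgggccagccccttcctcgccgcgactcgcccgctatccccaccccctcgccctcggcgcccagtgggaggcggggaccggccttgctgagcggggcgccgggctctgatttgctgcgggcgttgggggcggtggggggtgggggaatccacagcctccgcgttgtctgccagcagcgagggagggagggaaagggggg

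The window of Col3a1 held 0 CG dinucleotides and 35.2% G and C, while that of Col5a1 held 28 and 76.4%. The Col13a1 window held 24 CG dinucleotides, Col25a1 18 and Col6a3 3. TATAAA or its complement began 117 bases before the start of Col3a1 and 237 bases before that of Col13a1, CCAAT began 191 bases before that of Col25a1, and none of the 4 motifs was found for Col5a1 and Col6a3. Over the 35 members, TATAAA was found in 5 windows, 14.3%, against 13% of 27025 genes, and CCAAT in 12, 34.3%, against 34.5%. The CCAAT count leaves out a second RefSeq window of Col9a1, where CCAAT began 18 bases before the start. CAGCTG was found in 6, 17.1%, against 12.8%, and CTANNNNTAG in 4, 11.4%, against 3.23%. All 4 of the latter matches (in Col1a2, Col5a3, Col11a2 and Col24a1) had G or C among the middle bases, so none had the letters of a MEF2 site. A match of these letters is a description of the window and not a bound site. The Col13a1 start with most H3K4me3 lay 987 bp inside the gene from the RefSeq start shown.

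The share of collagen promoters with H3K27ac in myotubes was below that of all genes, and the share with H3K27me3 in myoblasts was above it at the 3-fold limit. For H3K4me3 the myoblast share was near that of all genes. These shares are a description, since each rests on a single library. H3K4me3 marked 21 of 43 promoters in myoblasts, 48.8%, against 53.1% of all genes, and 17 in myotubes, 39.5%, against 53.2%. H3K4me2 marked 32 promoters in myoblasts and 27 in myotubes, 74.4% and 62.8%, against 59.6% and 57% of all genes. For H3K4me1 the counts were 25 and 18, 58.1% and 41.9%, against 35.5% and 35.1%. H3K27ac marked 19 promoters in myoblasts and 11 in myotubes, 44.2% and 25.6%, against 51.6% and 47.8%. Of members with a CpG ratio of at least 0.6, it marked 5 of 10 in myotubes, against 79.6% of all such promoters. Below that ratio it marked 6 of 33, against 19.4%. H3K27me3 marked 11 and 3, 25.6% and 6.98%, against 10.3% and 7%. At a 5-fold limit the H3K27me3 counts were 3 and 0 of 43, against 3.96% and 1.23% of all genes, too few to set the family apart at that limit. In myotubes the 3-fold count was 5 with a window of 500 bp either side and 6 at the most 5′ start. The classes were unequal. In myoblasts H3K4me3 marked 8 of 11 fibrillar, 4 of 8 basement membrane and 9 of 24 other promoters, and in myotubes 6, 4 and 7. The median H3K4me3 fold in myoblasts was 7.38 in the fibrillar, 3.69 in the basement membrane and 1.61 in the other class, beside 5.07 over all genes. In myotubes these medians were 3.10, 4.07 and 1.55, beside 4.65. H3K4me2 marked all 11 fibrillar promoters in both cell types, with medians of 17-fold and 8.06-fold.

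**Figure D1:**
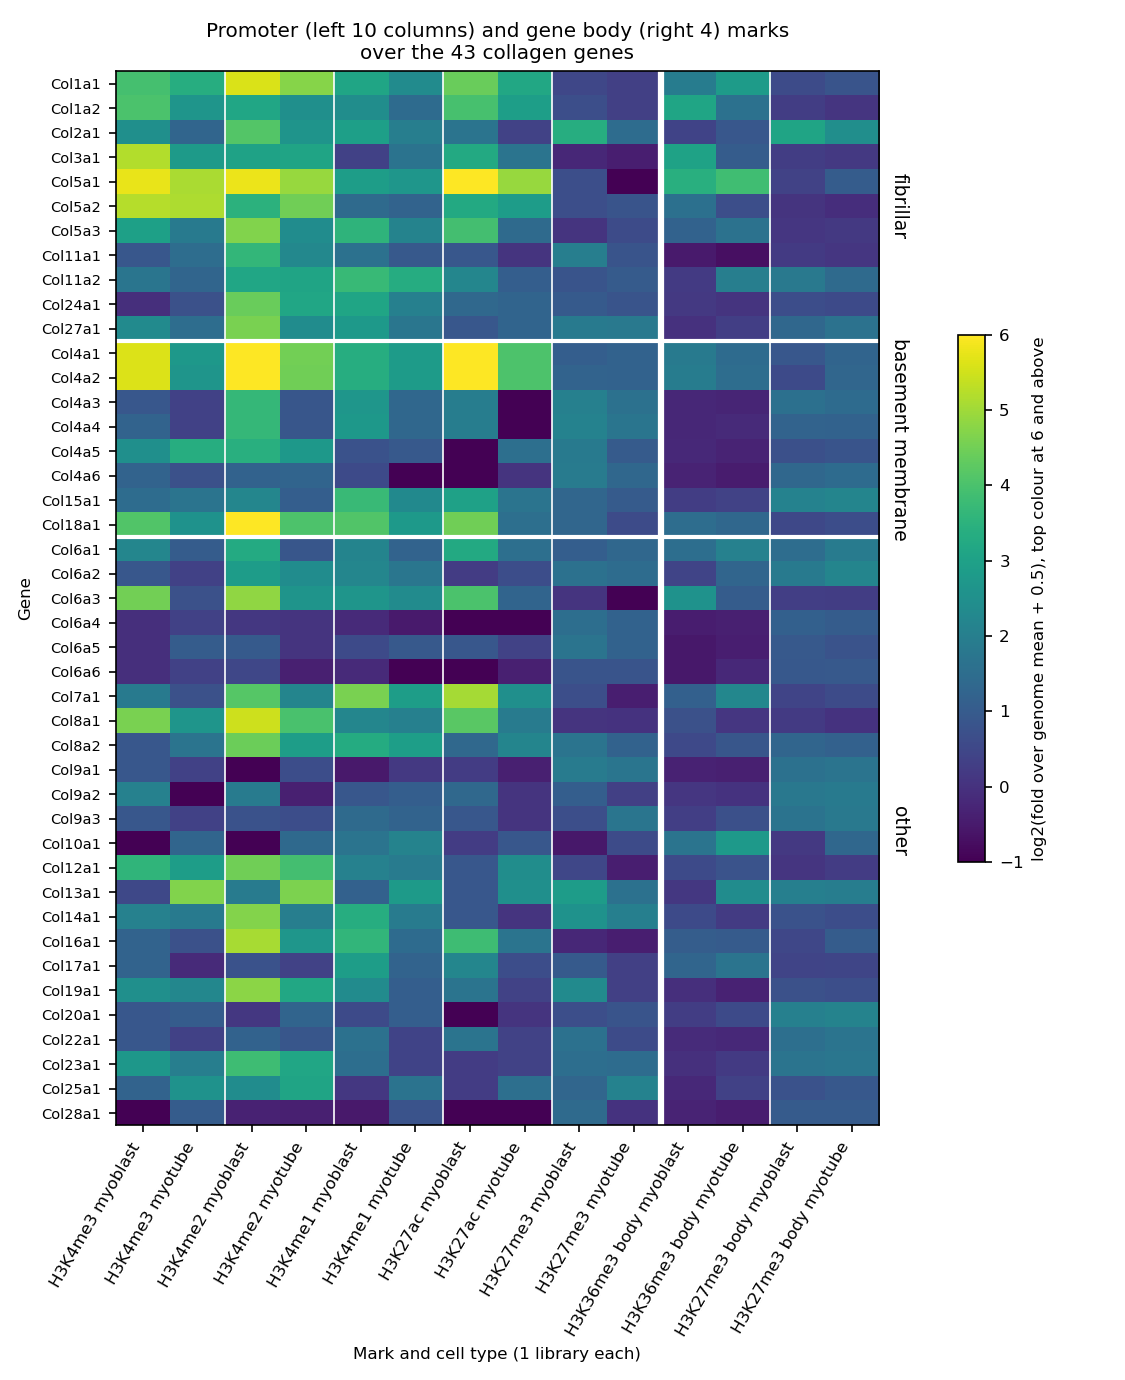
Fold over the genome mean for each of the 43 collagen genes (rows, grouped by class) in each library, as log2 of the fold plus 0.5, with promoter values in the left 10 columns and gene body values for H3K36me3 and H3K27me3 in the right 4. Col5a1, Col4a1, Col4a2 and Col18a1 carry the brightest H3K4me2 in myoblasts, Col13a1 turns bright for H3K4me3 in myotubes, and colours stop at 6, so folds above that level look alike.

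Ratios at promoters could be taken only where reads were many in at least one cell type, so the counts that follow describe the members with enough reads and not the family. For H3K4me3, 13 of 43 promoters had 30 reads, of which 2 were higher in myotubes (Col4a5 and Col13a1) and 7 were lower (Col1a2, Col3a1, Col4a1, Col4a2, Col6a3, Col8a1 and Col18a1). Among all 10982 promoters tested, 4.12% were higher and 4.30% lower. For H3K4me2, 3 of 30 were higher (Col5a2, Col13a1 and Col25a1) and 12 lower, against 8.34% and 8.79% of all promoters. For H3K4me1, 1 of 26 was higher (Col13a1) and 10 lower, against 11.9% and 12.4%. For H3K27ac, 0 of 11 were higher and 7 lower (Col4a1, Col4a2, Col6a3, Col7a1, Col8a1, Col16a1 and Col18a1), against 14.5% and 13.1%. The start used for Col7a1 lies near the 3′ end of that gene. For H3K27me3, 0 of 5 were higher and 1 lower (Col2a1), against 5.80% and 8.29%. Several of these counts depend on the window or the read limit, both of which also set the median gene that ratios are relative to. With a window of 500 bp either side, 3 promoters were lower for H3K27ac and 3 for H3K4me1, and with at least 60 reads these were 3 and 2. Of the 10 promoters lower for H3K4me1, 6 held 60 reads, but the median of all promoters tested, scaled by total reads, was 0.661 at that limit against 0.803 at 30 reads. With at least 60 reads, 1 promoter was higher and 4 were lower for H3K4me3, and with at least 15 reads 2 were higher for H3K27ac. Col4a1 and Col4a2 overlap at their starts on opposite strands and share nearly all of their promoter window, so they count as a single observation in each of these lists, and the same holds for Col4a3 and Col4a4.

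Promoters with many CpG had more H3K4me3 than the rest in the family as in the genome, but the median fold of such members stood lower than that of all such genes. Of the 10 promoters with a CpG ratio of at least 0.6, 8 were marked by H3K4me3 in each cell type, against 89% and 88.1% of all such promoters, and their median fold in myoblasts was 5.53, beside 30.9 over all 10531 such promoters. H3K27ac marked 3 of these 10 in myoblasts and 5 in myotubes, against 84.9% and 79.6%, and H3K27me3 marked 4 and 2, against 8.69% and 3.46%. Of the 33 members with a lower ratio, 13 were marked by H3K4me3 in myoblasts and 9 in myotubes, against 21.2% and 22.2%, and Col3a1 and Col5a2 were among them. H3K4me2 marked 22 and 17 of these 33, against 29.0% and 26.1%. H3K27ac marked 16 of these 33 in myoblasts and 6 in myotubes, against 21.97% and 19.4%. The H3K27ac share of members was thus below that of like promoters at a high CpG ratio. At a low ratio it was above in myoblasts and near in myotubes.

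Most members had several annotated starts. Of 39 members with more than 1 start, 12 had windows that differed over 3-fold in H3K4me3, with at least 30 reads at the higher one (Col1a1, Col1a2, Col3a1, Col4a1, Col4a2, Col4a5, Col5a1, Col5a2, Col6a3, Col12a1, Col13a1 and Col18a1). No share over all genes is at hand for the counts in this paragraph, so they describe the members and do not set the family apart. In Col5a1, 204 reads of both cell types lay at the 5′ start and 3 at the start inside the gene. Col18a1, which makes a long and shorter products from separate promoters, had 36 and 14 reads at its 5′ start. At an inner start 77.1 kb away it had 9 and 5, and H3K4me2 there was 90 reads in myoblasts and 18 in myotubes. Further inner starts are annotated 52.6, 52.8 and 52.9 kb away, and the lowest of their windows held 4 H3K4me3 reads of both cell types. Which inner start gives the shorter products was not tested. In 15 members the start with most reads was not the most 5′ one, and in 6 of these (Col7a1, Col8a2, Col9a1, Col9a2, Col15a1 and Col17a1) it lay over 10 kb inside on at most 12 reads, so the promoters of these 6 are uncertain.

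**Figure D2:**
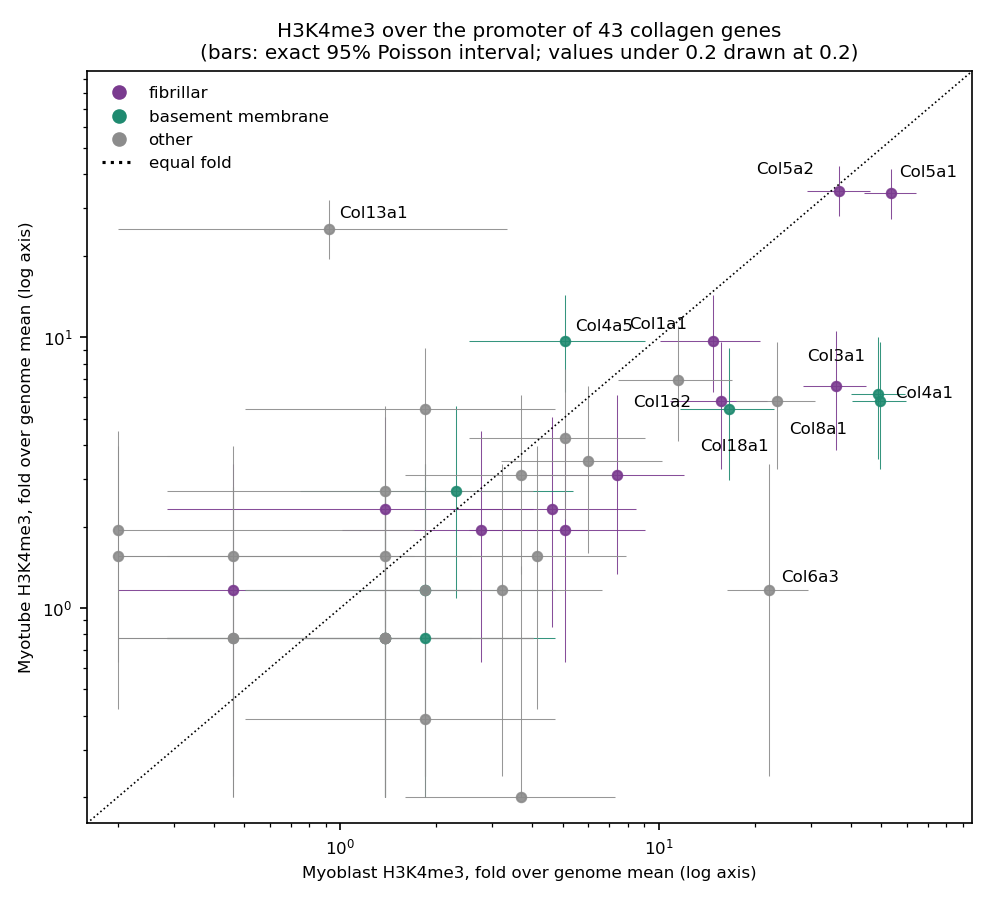
Myotube against myoblast H3K4me3 at the promoter of each collagen gene, in fold over the genome mean on log axes, with points coloured by class and bars for the exact 95% Poisson interval of each count. Col13a1 stands far above the line of equal fold, Col6a3, Col4a1 and Col3a1 stand below it, and Col5a2 lies on it.

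Among fibrillar collagens, the 6 genes of type I, III and V collagen, the main fibril formers outside cartilage, each had more promoter H3K4me3 and H3K27ac reads than any of the other 5 in both cell types. This did not hold for H3K4me2 and H3K4me1. In myotubes the lead of Col5a3 was within counting error. Its H3K4me3 and H3K27ac counts were 8 and 8, against up to 6 and 7 in the other 5. Chains of the same protein did not move alike. Col3a1 (chr1:45368383-45406551), the single chain of type III collagen, had 78 H3K4me3 reads at its promoter in myoblasts and 17 in myotubes, 36-fold and 6.59-fold, a level 4.74-fold lower (ratio 0.211, interval 0.117 to 0.360). Its body held 809 H3K36me3 reads in myoblasts and 99 in myotubes, and the ratio of 0.197 (0.158 to 0.242) was the largest fall of that mark in the family. H3K4me2 over the same promoter did not fall with them, at 26 and 30 reads. Col1a2 (chr6:4454814-4491543), the second chain of type I collagen, had 34 and 15 H3K4me3 reads at the promoter (ratio 0.427, 0.216 to 0.805). Its H3K36me3 went from 817 to 159 reads over the body, 8.09-fold to 2.57-fold (ratio 0.313, 0.262 to 0.371). Col1a1 (chr11:94797538-94814356), which encodes the other chain of the same molecule, had more of this mark in myotubes, with 154 reads in myoblasts and 191 in myotubes, 3.33-fold and 6.74-fold. Its ratio of 1.99 (1.6 to 2.48) missed the 2-fold rule, and it was 2.02 when libraries were scaled by total reads alone. H3K4me3 at the Col1a1 promoter was 32 and 25 reads (ratio 0.756, 0.430 to 1.32) and was not called, and H3K27ac over its body was 2.08-fold lower (68 and 65 reads).

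Col5a1 (chr2:27741945-27895034) and Col5a2 (chr1:45431166-45560127) encode chains of type V collagen, which is built into type I fibrils and limits their width. Col5a1 had the highest H3K4me3 of the family in myoblasts, with 116 reads against 88 in myotubes, 53.5-fold and 34.1-fold, a difference that was not called. It also had the highest H3K36me3 in both cell types, with 4243 and 3604 reads over the body, 10.1-fold and 14-fold (ratio 1.36, 1.30 to 1.43). The noncoding gene 2810430I11Rik starts within 1 kb of Col5a1, so reads of this promoter can belong to either. At Col5a2 the marks diverged. H3K4me3 stood at 80 and 90 reads, the highest level in myotubes at 34.9-fold, and H3K4me2 rose from 36 to 82 reads (ratio 3.48, 2.32 to 5.30). H3K36me3 over the Col5a2 body nonetheless went from 887 to 240 reads, 2.50-fold to 1.10-fold, which was 2.30-fold lower (ratio 0.435, 0.375 to 0.502). Col5a3 had 222 and 200 H3K36me3 reads (ratio 1.45, 1.19 to 1.76) and lower H3K4me2 at the promoter, with 84 reads against 18. Col3a1 and Col5a2 are neighbours on chromosome 1, and both had lower H3K36me3 in myotubes.

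The fibrillar collagens of cartilage had at most 11 H3K4me3 reads at the starts used, and Col2a1 carried the most H3K27me3. H3K4me2 marked all 3 of these promoters, at 17-fold in Col2a1, 11.9-fold in Col11a1 and 8.34-fold in Col11a2 in myoblasts. Col2a1 (chr15:97806033-97835155), the chain of cartilage type II collagen, had 54 H3K27me3 reads at its promoter in myoblasts and 9 in myotubes, 9.84-fold and 2.29-fold (ratio 0.343, 0.149 to 0.700). Over its body this mark held 644 and 288 reads, 8.06-fold and 5.04-fold, the highest level of all members in both cell types. The same window had 57 H3K4me2 reads in myoblasts and 21 in myotubes. The start used for Col2a1 lay 2837 bp inside the gene and was chosen on 11 and 5 H3K4me3 reads. At the most 5′ start, H3K4me2 counted 13 and 6 reads and H3K27me3 71 and 18. Col11a1 had 3 and 6 H3K4me3 reads, and its H3K36me3 was 0.208-fold in myoblasts and 0.115-fold in myotubes, the lowest of the family in the latter. Col11a2 differed, with 48 H3K36me3 reads in myoblasts and 160 in myotubes, 0.641-fold and 3.48-fold (ratio 5.35, 3.86 to 7.56), although its H3K4me3 was 6 and 5 reads at the start used. There it had 64 H3K4me1 reads in myoblasts and 47 in myotubes, 12.6-fold and 9.58-fold, the latter the highest of the family. Col24a1 and Col27a1, the remaining fibrillar genes, had 69 and 80 H3K4me2 reads in myoblasts against 31 and 18 in myotubes.

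The strongest promoters of basement membrane collagens lost marks in myotubes. Over the bodies of these collagens H3K36me3 was called changed in 0 of 8, against 6.91% higher and 6.89% lower of all genes. With 8 genes this count is near those shares. The window shared by Col4a1 (chr8:11198423-11312826) and Col4a2 (chr8:11312805-11449287), the most widespread type IV chains, had the most H3K4me2 and H3K27ac of all members in myoblasts. Around the Col4a1 start, H3K4me3 fell from 106 to 16 reads (ratio 0.146, 0.0806 to 0.248), H3K4me2 from 374 to 83 (0.339, 0.264 to 0.431) and H3K27ac from 107 to 59 (0.376, 0.269 to 0.521). The myotube level of 16-fold for H3K27ac was still the second highest of the family after the 29.8-fold of Col5a1. H3K36me3 over the bodies went from 994 to 432 reads in Col4a1 and from 1250 to 542 in Col4a2, with ratios of 0.698 and 0.696 that were not called. The pair Col4a3 and Col4a4, chains of kidney and lung membranes, had 41 H3K4me2 reads in the shared window in myoblasts and 5 in myotubes, with 3 and 4 H3K4me3 reads in myoblasts at the respective starts and 2 in myotubes. Col4a5 on the X chromosome was the exception to the losses, with 11 H3K4me3 reads in myoblasts and 25 in myotubes (ratio 2.20, 1.04 to 4.95), a rise that was not called when libraries were scaled by total reads alone. Its neighbour Col4a6, whose promoter window overlaps part of that of Col4a5, had 4 and 3.

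Col18a1 (chr10:76514923-76629293), whose C-terminal fragment is endostatin, had less of all 4 active marks at its promoter in myotubes. H3K4me3 fell from 36 to 14 reads (ratio 0.376, 0.188 to 0.715), H3K4me2 from 263 to 60 (0.348, 0.259 to 0.463), H3K4me1 from 85 to 31 (0.469, 0.300 to 0.715) and H3K27ac from 32 to 9 (0.192, 0.0804 to 0.411). H3K27ac over its whole body was 3.03-fold lower, 319 reads against 210. H3K36me3 was 733 and 387 reads, 2.33-fold and 2.01-fold (ratio 0.848, 0.748 to 0.961), and was not called. Slc19a1 on the opposite strand covers 7.72% of the Col18a1 body, and outside Col18a1 it had H3K36me3 of 5.98-fold and 8.72-fold. Without the shared stretch, a choice made after seeing the data, Col18a1 had 639 and 327 reads, 2.20-fold and 1.84-fold (ratio 0.822, 0.717 to 0.941), so that its myotube level was under the 2-fold limit. Col15a1, the other collagen of this kind, was marked by H3K27me3 over its body in both cell types, at 3.82-fold and 4.01-fold. Its promoter cannot be placed with confidence, since the start with most H3K4me3 lay 95.6 kb inside the gene on 5 and 7 reads.

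Among the other collagens, type VI chains, whose filaments anchor the muscle fibre's basement membrane, differed in H3K36me3. Col6a3 (chr1:92663435-92740529) had 48 H3K4me3 reads at its promoter in myoblasts and 3 in myotubes, 16.5-fold lower (ratio 0.0605, 0.0121 to 0.188) and the largest fall of this mark. H3K27ac there went from 23 to 7 reads (0.207, 0.0751 to 0.499), and H3K36me3 over the body from 1156 to 201, 5.45-fold to 1.55-fold (0.279, 0.239 to 0.325). Col6a1 and Col6a2, neighbours on chromosome 10 whose products join that of Col6a3 in each molecule, were not called lower in H3K36me3. Col6a1 had 114 and 110 reads (ratio 1.55, 1.18 to 2.03) and Col6a2 66 and 91 (2.21, 1.6 to 3.09), and the latter was called higher. H3K4me2 of Col6a1 did fall, at the promoter from 31 to 5 reads (ratio 0.246, 0.0748 to 0.639) and over the body from 96 to 43 (0.463, 0.315 to 0.670), as it did at the Col6a3 promoter, from 94 to 21 (0.341, 0.202 to 0.552). The promoters of Col6a1 and Col6a2 were weak in H3K4me3, with 9 and 4 reads at Col6a1 and 3 and 2 at Col6a2. Col6a4, Col6a5 and Col6a6 had 1 H3K4me3 read each in myoblasts and at most 4 in myotubes. H3K36me3 over Col6a6 was called higher (70 and 89 reads) but stayed at 0.184-fold and 0.381-fold, under the genome mean.

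Among members with at least 30 reads, the transmembrane collagen gene Col13a1 had the largest rise in H3K4me3, H3K4me2 and H3K4me1 at the promoter and in H3K36me3 over the body, and Col25a1, of the same kind, had the largest in body H3K4me2, H3K4me1 and H3K27ac. Col13a1 (chr10:61300984-61441856), a collagen of cell adhesion sites and of the neuromuscular junction, had 2 H3K4me3 reads at its promoter in myoblasts and 65 in myotubes, 0.922-fold and 25.2-fold (ratio 31.5, 8.36 to 265). With 2 reads in myoblasts, the size of this rise is known only within that interval. H3K4me2 rose from 11 to 90 reads (12.5, 6.66 to 25.9) and H3K4me1 from 9 to 32 (4.57, 2.13 to 10.9), while H3K27ac counted 2 and 19 reads and was under the limit for a ratio. H3K27me3 at the same window counted 37 and 10 reads, 6.74-fold and 2.55-fold, a ratio of 0.556 (0.246 to 1.14) that was not called. Over the body, H3K36me3 rose from 229 to 1139 reads, 0.591-fold to 4.80-fold (7.99, 6.93 to 9.25), and H3K27ac from 140 to 1312 (4.70, 3.95 to 5.64). H3K27me3 over the body stayed at 3.54-fold and 3.40-fold. At the most 5′ annotated start of Col13a1 the H3K4me3 counts were 1 and 39. Col25a1 (chr3:129883809-130302795), which is needed for motor nerves to reach muscle, changed in the same direction. Its H3K4me3 was 4 and 14 reads, under the limit for a ratio, its promoter H3K4me2 16 and 30 (2.86, 1.51 to 5.62) and its body H3K36me3 424 and 543 (2.06, 1.81 to 2.34), which at 0.368-fold and 0.769-fold was under the genome mean in both cell types. H3K27ac over the Col25a1 body rose from 65 to 874 reads, 0.213-fold to 1.13-fold (6.75, 5.24 to 8.82). In contrast with Col13a1, its H3K27me3 was 11 and 15 reads at the promoter and the highest of the family in myotubes at 3.82-fold. The other transmembrane genes, Col17a1 of epithelial anchorage and Col23a1, had 4 and 13 H3K4me3 reads in myoblasts and 1 and 9 in myotubes.

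**Figure D3:**
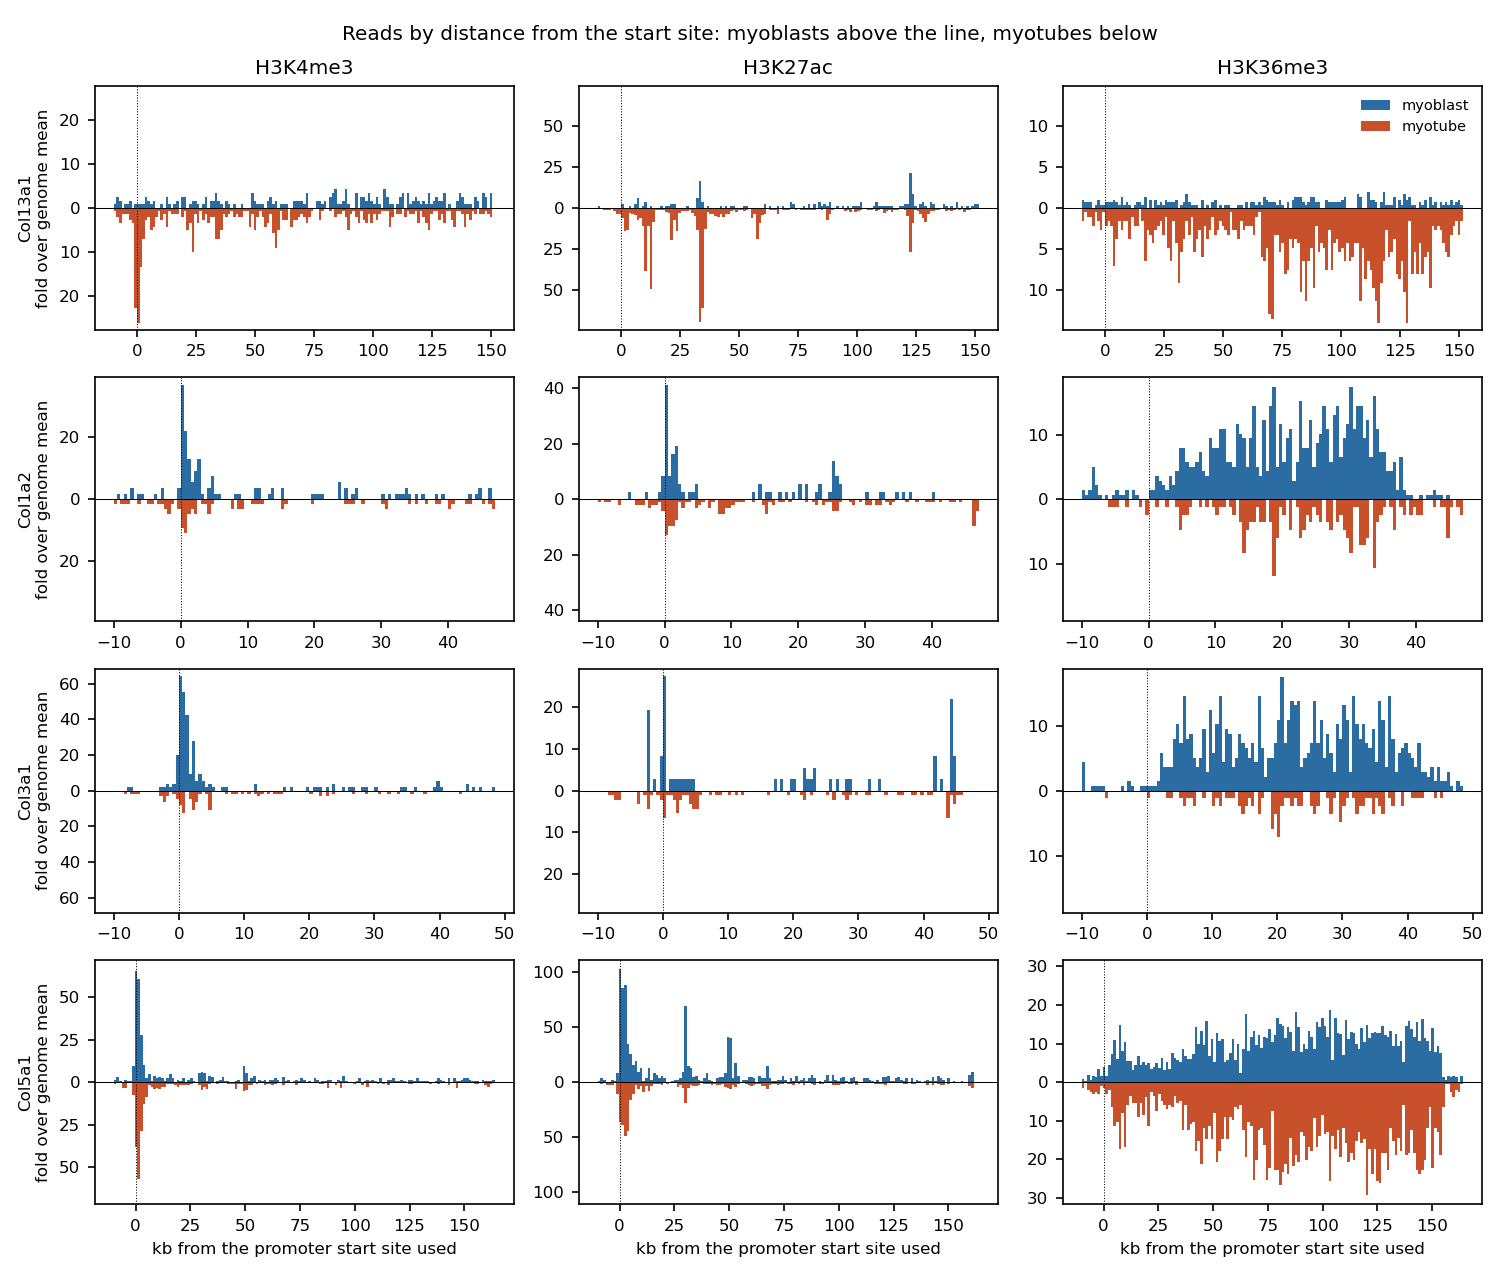
Fold over the genome mean of H3K4me3, H3K27ac and H3K36me3 by distance in kb from the promoter start used (dotted line). Bins are 0.5 kb for Col1a2 and Col3a1, 1.1 kb for Col13a1 and 1.2 kb for Col5a1. Myoblasts are drawn above and myotubes below the zero line, and each panel has its own scale. In myotubes Col13a1 shows H3K27ac 34.4 kb into the gene and H3K36me3 along its length, Col1a2 and Col3a1 show the taller H3K36me3 in myoblasts, and Col5a1 is high in both.

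The remaining genes of this class carried little H3K4me3 with a few exceptions. Col8a1 (chr16:57624371-57754850), a short-chain collagen of vessel walls and the eye, lost H3K4me3, with 51 reads in myoblasts and 15 in myotubes (ratio 0.285, 0.149 to 0.514), H3K27ac, with 26 and 12 (0.314, 0.145 to 0.645), and body H3K36me3, with 423 and 128 (0.486, 0.396 to 0.594). Col12a1, a FACIT that coats type I fibrils, had 25 and 18 H3K4me3 reads, and H3K27ac over its body rose from 42 to 308 reads (3.68, 2.66 to 5.21). Col14a1, a related FACIT, had 86 H3K4me2 reads at the promoter in myoblasts and 13 in myotubes (0.231, 0.118 to 0.416). Col16a1 lost H3K4me2 (112 and 22 reads), H3K4me1 (59 and 11) and H3K27ac (20 and 10), but Gm12963 starts within 1 kb of it. Col7a1, the anchoring fibril collagen of skin, had the most H3K4me1 in myoblasts, 120 reads against 34 in myotubes (0.364, 0.241 to 0.537). The start used lay 29.3 kb inside the 31.3 kb gene, near its 3′ end, and was chosen on 7 and 3 H3K4me3 reads. H3K36me3 over the Col7a1 body rose from 147 to 223 reads (2.44, 1.97 to 3.02). Col8a2, Col9a1, Col9a2, Col9a3 and Col20a1 had 8 H3K4me3 reads or fewer in either cell type, as did Col10a1, the collagen of hypertrophic cartilage, with 0 and 5. Body ratios of Col10a1 say little about this gene, because all of it lies inside Nt5dc1 on the opposite strand, which had H3K36me3 of 2.00-fold and 2.48-fold outside Col10a1. Col28a1 had 0 and 4 H3K4me3 reads, and Col19a1 and Col22a1 had 11 and 3 in myoblasts and 11 and 2 in myotubes.

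H3K27me3 lay at 11 collagen promoters in myoblasts, and most of these also carried H3K4me2. They were Col2a1, Col4a3, Col4a4, Col4a5, Col4a6, Col9a1, Col11a1, Col13a1, Col14a1, Col19a1 and Col27a1, from 3.10-fold in Col4a5 and Col27a1 to 9.84-fold in Col2a1. By class they were 3 fibrillar, 4 basement membrane and 4 other genes. In myotubes 3 promoters were marked, Col14a1 with 14 reads, Col25a1 with 15 and Col27a1 with 12. All but Col4a6 and Col9a1 of the 11 had H3K4me2 of at least 3-fold too, which gave 9 members with both marks in myoblasts, against 4.74% of all genes. Col4a3 and Col4a4 share nearly all of their promoter window and count as a single observation in the 11 and the 9. The windows of Col4a5 and Col4a6 overlap in part, so their H3K27me3 counts of 17 and 18 reads in myoblasts are not independent. All 4 basement membrane genes of the 11 thus lie in such pairs. The H3K4me2 fold of the 9 members ran from 3.28 in Col13a1 to 27.1 in Col19a1. The cells were not separated, so marks on the same and on different chromosomes cannot be told apart. Over gene bodies H3K27me3 was more alike in the cell types, with 15 members marked in myoblasts and 16 in myotubes, 34.9% and 37.2%, against 14% and 14.3% of all genes. Of 43 body ratios 1 was higher (Col10a1, 12 and 28 reads) and 0 were lower, against 4.26% and 2.26%. After Col2a1, the highest body levels in myoblasts were 3.82-fold in Col15a1, 3.61-fold in Col20a1 and 3.54-fold in Col13a1.

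H3K36me3 over gene bodies, the mark of transcription along a gene, could be compared in every member. It marked 11 of 43 members in myoblasts and 13 in myotubes, 25.6% and 30.2%, against 41.8% and 41.5% of all genes. Of the 43 ratios 7 were higher in myotubes (Col6a2, Col6a6, Col7a1, Col10a1, Col11a2, Col13a1 and Col25a1) and 5 lower (Col1a2, Col3a1, Col5a2, Col6a3 and Col8a1), against 6.91% and 6.89% of all genes. The members that fell included the 3 most heavily marked bodies in myoblasts after Col5a1, namely Col1a2, Col3a1 and Col6a3. The median ratio was 1.36 in 11 fibrillar, 0.833 in 8 basement membrane and 1.32 in 24 other genes, beside 1 over all genes by construction. Fibrillar ratios spread from 0.197 to 5.35 with 1 gene called higher and 3 lower, while the 8 basement membrane ratios stayed between 0.696 and 1.12 with 0 called in either direction. A count of 0 in 8 genes is near the shares of all genes. In the other class, which spread from 0.279 to 7.99, 6 were higher and 2 lower. Since these medians rest on single libraries, they carry no error from replicates.

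**Figure D4:**
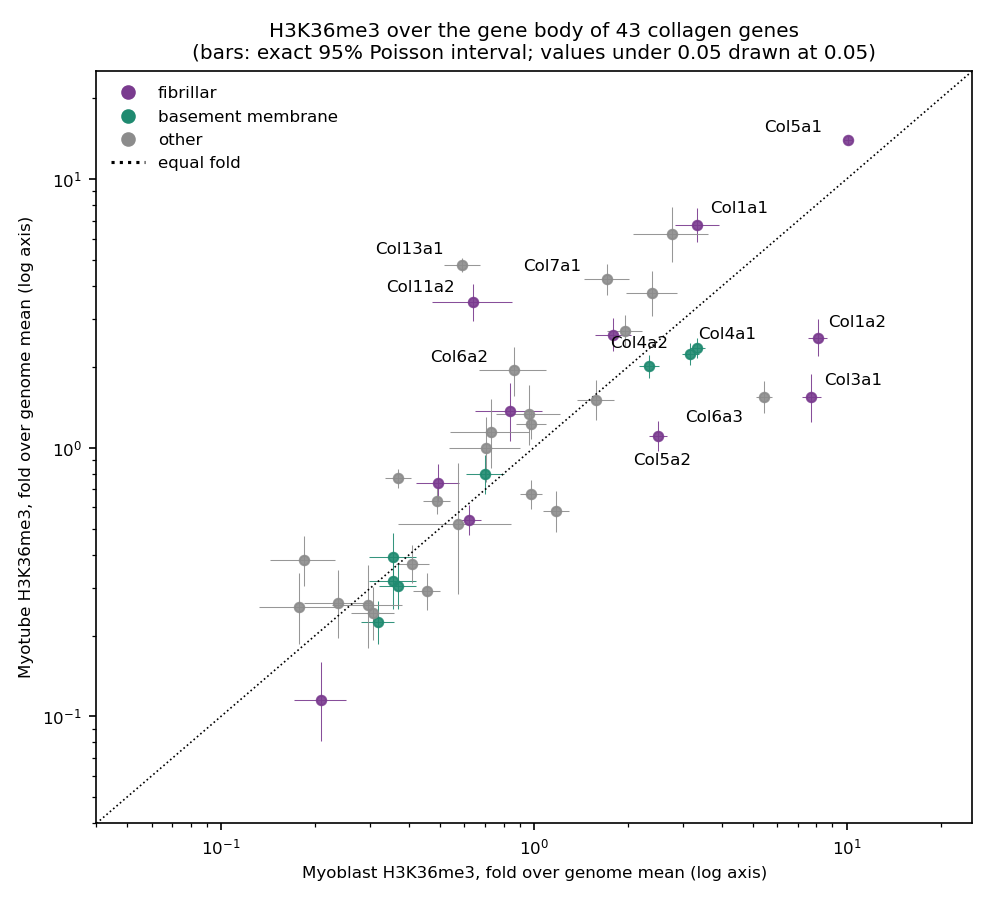
Myotube against myoblast H3K36me3 over the body of each collagen gene, in fold over the genome mean on log axes, with points coloured by class and bars for the exact 95% Poisson interval. Col1a2, Col3a1, Col6a3 and Col5a2 lie below the line of equal fold, Col13a1 and Col11a2 far above it, and the basement membrane genes close to it.

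Reads of the enhancer marks within collagen genes changed in both directions. At the main settings the counts for H3K4me2 and H3K27ac were near the shares of all genes. Over bodies H3K4me2 was higher in 7 of 42 and lower in 7, against 13.4% and 12.7% of all genes. The split was 4 and 9 with libraries scaled by total reads alone, and 4 and 13 with 1 kb around each start site left out of the body. H3K4me1 was higher in 3 of 43 (Col11a1, Col13a1 and Col25a1) and lower in 8, against 11.0% and 9.62%. H3K27ac was higher in 7 of 42 (Col4a5, Col9a1, Col11a1, Col12a1, Col13a1, Col25a1 and Col28a1) and lower in 6 (Col1a1, Col5a3, Col7a1, Col16a1, Col18a1 and Col27a1), against 12.9% and 11.6%, and the split was 7 and 11 under total-read scaling. The class medians of the H3K27ac ratio were 0.827, 1.004 and 1.17 for fibrillar, basement membrane and other genes. To see where the reads lay, each gene was divided into 1 kb bins more than 1.5 kb from any annotated start site, and bins of at least 5-fold H3K27ac were counted. They were 212 of 4779 member bins in myoblasts and 135 in myotubes, 4.44% and 2.82%, beside 3.98% and 3.73% of the bins of all genes. This limit is set on the genome mean and not relative to the median gene, whose body ratio was 0.784. In Col13a1 there were 8 such bins of 129 in myoblasts and 30 in myotubes, and the highest, 34.4 kb from the start, held 151 reads in myotubes, 81.7-fold. In Col25a1 there were 0 of 407 in myoblasts and 20 in myotubes, the highest at 27.6-fold. Fewer such bins in myotubes were found in Col4a2, with 52 of 125 in myoblasts and 23 in myotubes, and in Col4a1, with 14 and 4 of 110. Col4a3, Col4a4 and Col4a6 had 0 in both cell types, and Col4a5 had 0 and 1. Col5a1 had 42 and 13 of 145 bins, and Col18a1 20 and 2 of 107. Of these 4 genes with fewer bins only Col18a1 was called lower over the whole body (ratio 0.330), while Col5a1, Col4a2 and Col4a1 had ratios of 0.612, 0.627 and 0.654 that were not called. In Col6a3 the bin 5.42 kb from the start kept 31.7-fold in myoblasts and 39.0-fold in myotubes although the promoter lost H3K27ac. A bin in the myoblast library reached 5-fold on fewer reads than in the myotube library, so counts of bins are less certain in myoblasts.

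**Figure D5:**
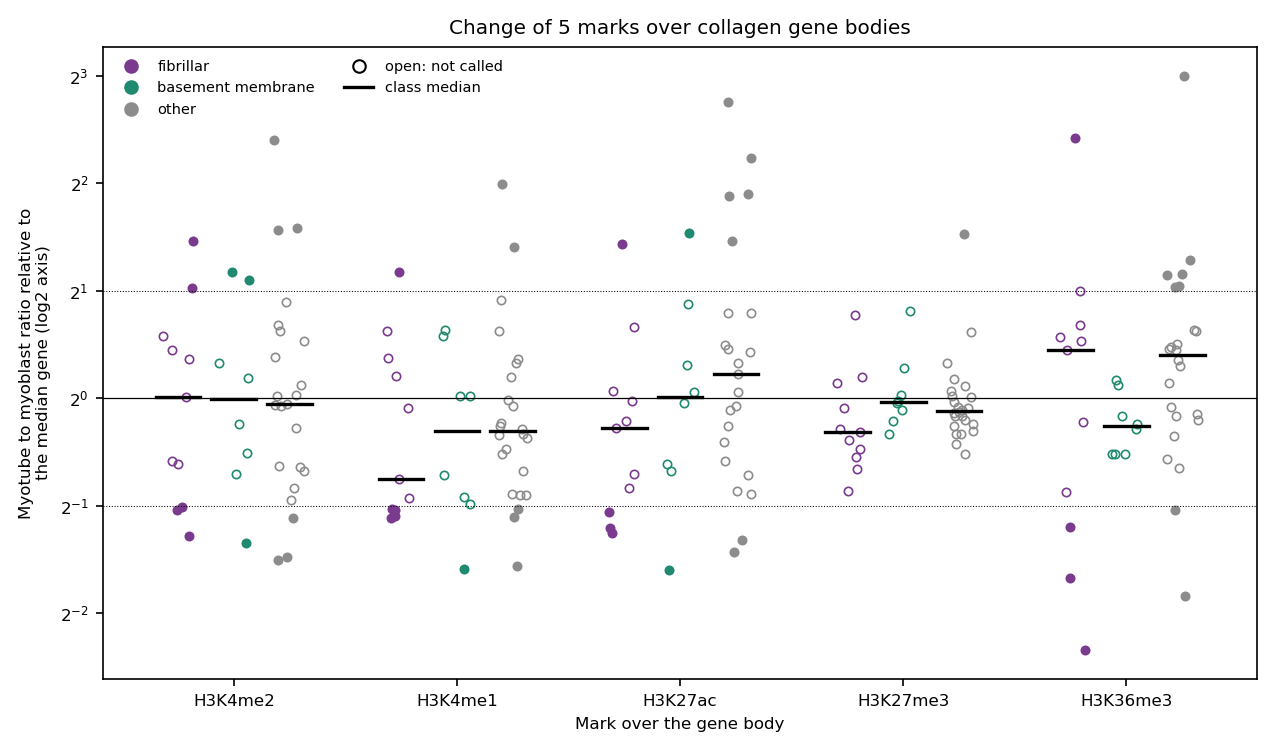
Myotube to myoblast ratio, relative to the median gene, of 5 marks over the body of each collagen gene with at least 30 reads, on a log2 axis, in columns by class. Filled points were called, bars are class medians, dotted lines mark the 2-fold limits, and the H3K36me3 medians stand at 1.36 for fibrillar, 0.833 for basement membrane and 1.32 for other genes.

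The deposited peak lists were set beside the promoters of the members. Peaks of H3K4me3 overlapped 15 member promoters in myoblasts and 10 in myotubes, against 48.9% and 49.1% of all promoters. For H3K4me2 they overlapped 28 and 22, against 57.1% and 53.3%, and for H3K4me1 23 and 4, against 29.8% and 11.2%. How thresholds were set for each list is not given in the sources used here, so the counts of the cell types are not compared. The myoblast lists of H3K27me3 and H3K27ac were found exchanged against their reads. Regions of the list that came with the H3K27me3 sample had 36.4-fold H3K27ac and 0.804-fold H3K27me3. Regions of the list of the H3K27ac sample had 6.76-fold H3K27me3 and 0.588-fold H3K27ac. As deposited, H3K27me3 peaks lay at 13 member promoters and H3K27ac peaks at 3, against 46.3% and 4.94% of all promoters, and exchanged the counts are 3 and 13. The myotube lists had H3K27ac peaks at 6 member promoters and H3K27me3 peaks at 0, against 42.6% and 1.4%. H3K36me3 peaks lay at 0 in both cell types, against 3.47% and 3.76%. Apart from counts of the same peaks under other limits, no other value uses the lists.

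Genes that process collagen changed at a few members. Of 27 such genes (prolyl and lysyl hydroxylases, chaperones, propeptidases and crosslinking enzymes), 21 could be compared for H3K4me3, and 1 was higher and 3 lower, against 4.12% and 4.30% of all promoters. For H3K4me2, 0 of 26 were higher and 7 lower, against 8.34% and 8.79%, and for H3K27ac 1 of 17 was higher and 2 lower, against 14.5% and 13.1%. Adamts14, a procollagen N-propeptidase, had 53 H3K4me3 reads in myoblasts and 163 in myotubes (ratio 2.98), and its body H3K36me3 rose 2.66-fold (2.46 to 2.89). The lower ones were Leprel2, Pcolce and Pcolce2, and Pcolce, an enhancer of procollagen C-propeptide removal, went from 100 to 24 reads. For H3K36me3, 2 of 27 were higher (Adamts14 and Loxl4) and 4 lower (P4ha3, Pcolce2, Lox and Loxl2), against 6.91% and 6.89% of all genes. Among the lower, the crosslinking enzymes Lox and Loxl2 had ratios of 0.476 (0.357 to 0.628) and 0.362 (0.296 to 0.440). Serpinh1, the collagen-specific chaperone, kept 95 and 104 H3K4me3 reads. Of 7 collagen receptors, the integrin chains Itga10 and Itga11 had higher H3K36me3 (ratios 2.43 and 2.62) and 0 had lower, while H3K4me3 was called changed at 0 of the 4 that could be compared.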

How the data were processed

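ChIP-seq libraries of 6 marks from C2C12 myoblasts and myotubes, 1 per mark and cell type, were analysed. As far as the sources state it, the authors aligned reads to mm9 with Mosaik, kept uniquely placed ones and called peaks with MACS. The deposited read files give 1 line per read of 34 bp with a count of 1, and the deposited peak lists carry a MACS score, whose settings are not given in the sources used here. Samples were grouped by their labels. Library fragments were about 250 bp after 15 PCR cycles, so reads are not independent molecules and intervals cover counting error only. No input library was used. Python 3.11.15, numpy 2.4.6 and scipy 1.17.1 were used, with GENCODE mouse release 1 (Ensembl 65) on the same build. Reads extended to 150 bp were counted by their midpoints, and genes with under 30 reads in both libraries together got no ratio. Intervals are exact Poisson for folds and exact conditional binomial for ratios, with 3 reads as the floor for a count of 0. The counting and ratio steps were tested on simulated data. Named genes were the main fibrillar, type IV, type VI, type II and type X chains, the highest and lowest members per mark, the largest rise and fall per mark, promoters with H3K27me3, and genes whose start sites differ in H3K4me3. The members, classes and lists were chosen with earlier results of these data known. Alternatives changed the read position, window, start site, scaling and thresholds.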

Additional observations from a re-analysis of the deposited data

How the results depend on the processing

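Of 41 called ratios (H3K4me3 and H3K27ac at promoters, H3K27ac and H3K36me3 over bodies), 39 stayed called in every alternative that gave a value, 2 missed the call in 1 alternative each (H3K4me3 of Col4a5, H3K27ac over Col11a1), and 0 changed direction. The median H3K36me3 ratio over bodies ran from 1.36 to 1.39 in the fibrillar, 0.758 to 0.863 in the basement membrane and 1.25 to 1.37 in the other class over the alternatives run. The counts of members that moved by more than 1.5 times follow. At a 5-fold limit, H3K27me3 marked 3 promoters in myoblasts and 0 in myotubes, and H3K4me1 8 in myotubes. With a window of 500 bp either side, H3K27me3 marked 5 in myotubes, 1 H3K4me3 promoter was higher, and 3 were lower for H3K27ac and 3 for H3K4me1. At the most 5′ start site, H3K27me3 marked 6 promoters in myotubes, with 1 higher and 2 lower. With scaling by total reads alone, 1 H3K4me3 promoter was higher and 2 H3K27me3 promoters lower, and over bodies 4 were higher for H3K4me2 and 11 lower for H3K27ac. With at least 60 reads, which also moved the median H3K4me1 ratio at promoters from 0.803 to 0.661, 1 promoter was higher and 4 lower for H3K4me3, 3 were lower for H3K27ac, 0 were higher and 2 lower for H3K4me1, and 0 bodies were higher for H3K27me3. With at least 15 reads, 2 promoters were higher for H3K27ac, 3 were higher for H3K4me1, and 2 were higher and 3 lower for H3K27me3. With start sites left out of the body, H3K4me2 was higher in 4 and lower in 13. At a 1.5-fold limit, bodies higher were 11 for H3K36me3, 11 for H3K27ac, 6 for H3K4me1 and 4 for H3K27me3, and bodies lower were 13 for H3K4me2, 17 for H3K4me1, 13 for H3K27ac and 2 for H3K27me3. Peaks that cover the start site lay at 13 promoters for H3K4me2 in myotubes, 13 for H3K4me1 in myoblasts and 0 for H3K4me1 in myotubes. Peaks of a score of 100 or more lay at 13, 15 and 0 of these, and at 1 for the list deposited as H3K27ac of myoblasts. With the exchanged myoblast lists the counts were 13 for H3K27ac and 3 for H3K27me3. Without the stretch shared with Slc19a1, added after seeing the data, the H3K36me3 ratio of Col18a1 was 0.822 and not called. Where the limit itself does not set the count, the cause was not tested. With 1 library per mark and cell type, no library could be left out. No paired analysis was possible because each group holds 1 library.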
